A study of Mus musculus with 32 samples.

Results

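Adult lungs of mice without glutathione reductase (Gsr-KO) were compared with adult lungs of mice that have the enzyme (Gsr-WT), at postnatal day 56 (P56), after both had breathed 100% oxygen as newborns. The comparison holds 6 of the 32 arrays of the series, 3 for each genotype, chosen by the titles of the samples, and it was made across all genes on the array. All 6 mice were of the C3H/HeN strain. They were kept in 100% oxygen with their dams from P0 to P5 and then recovered in room air until P56. A second pair of P56 groups, 3 Gsr-KO and 3 Gsr-WT mice that stayed in room air throughout, is used beside them, and values at embryonic day 19 (E19) and at P5 are given for a few genes. Each array measured RNA from a portion of the lung of 1 mouse, so the replicates are separate animals. How the knockout allele was made and which part of the gene it lacks is not given in the sources used here. Of 18193 genes with exactly 1 symbol on the array, 13345 passed the filter on low signal (above 100.4 units on at least 3 arrays) and were tested.

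Glutathione reductase uses NADPH to turn oxidised glutathione back into reduced glutathione. Reduced glutathione is spent by the glutathione peroxidases, which remove peroxides, by the glutaredoxins, and by the glutathione S-transferases, which attach it to reactive compounds. The thioredoxin system does related work with its own NADPH-dependent reductase. NRF2 is the transcription factor that oxidants and electrophiles release to raise many of these enzymes. In newborn rodents, breathing high oxygen slows the formation of alveoli, and the lungs of animals exposed this way are studied in adulthood as a model of the lung disease that follows preterm birth.

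Only 5 genes passed the test across all genes (adjusted p under 0.05 by limma with Benjamini-Hochberg adjustment), which is 0.0375% of the genes tested. Gsr itself and Zdhhc2, a protein palmitoyltransferase read here from 1 of its 4 probe sets, fell in the knockout (2 genes, 0.015%). Saraf, an inhibitor of store-operated calcium entry, Cyp26b1, an enzyme that breaks down retinoic acid, and the predicted gene Gm5617 rose (3 genes, 0.0225%). Without replicate 2 of the Gsr-WT group, 4 genes passed, which is 0.03%, with 2 in each direction (0.015% each). These were Gsr, Zdhhc2, Saraf and Glycam1, a mucin-like ligand of L-selectin made by the high endothelial venules of lymph nodes. At an unadjusted p under 0.05 there were 1164 genes (8.72%), of which 647 (4.85%) were higher and 517 (3.87%) lower in the knockout. Without that replicate there were 827 (6.2%), of which 555 (4.16%) were higher and 272 (2.04%) lower. In all, 465 genes met the unadjusted threshold in both fits, 300 of them higher and 165 lower.

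Replicate 2 of the Gsr-WT hyperoxia group stood apart from the other 5 arrays of the comparison. Its 3'/5' control ratio, which climbs when RNA is degraded or incompletely copied, was 2.84 on the log2 scale, against 0.277 and 0.309 on the other Gsr-WT arrays and 0.543, 1.24 and 1.55 on the Gsr-KO arrays. Its median signal was 76.2 units, against 98.7 to 107.3 on the other 5. Gsr-KO replicate 1 at E19 had a higher log2 ratio (4.37) and a lower median signal (68.43 units). That array enters the shared fit and the E19 values, and it is absent from the fit of the 4 P56 groups given below. A control probe set for the 5' end of 18S ribosomal RNA read 18070 and 22350 units in Gsr-WT replicates 1 and 3, 118.6 in replicate 2, and 635.7, 408.5 and 342.3 in Gsr-KO. The 18S control therefore did not overlap between the Gsr-KO arrays and the other Gsr-WT arrays. With the mean level of the 3 18S control probe sets as a covariate 1263 genes passed, and with the 3'/5' ratio as a covariate 349 did, both chosen after seeing the data. The part of these controls in any single difference was not tested. Array sums over the series ran from 31172678 to 35272173 units, and detection calls were not used here. All 6 lungs had high Xist signal (5960 to 12990 units) and low signal of the Y-linked gene Eif2s3y (10.8 to 53.1), so sex did not differ between the groups by these genes. In air, Eif2s3y read 1396 to 1992 on 3 of 6 arrays (Gsr-WT replicates 1 and 2 and Gsr-KO replicate 1). Of these, Gsr-KO replicate 1 also had high Xist (5598 units). The air groups thus differed in Y-linked signal, which enters the air comparison and every genotype-by-oxygen term. With the Y-linked level as a covariate 50 genes passed in air, against 10 without it, and none for the genotype-by-oxygen term. The part of sex in any single difference was not tested. Markers of the labelled tissue were present: the lowest group means among the 22 measured alveolar type 1 genes were 1267 units in Gsr-KO and 895 in Gsr-WT, and Sftpc, surfactant protein C, read 15130 to 28640.

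Gsr was measured by a pair of probe sets, and both were low in every knockout lung. The probe set with the higher mean read 188.4, 233.7 and 256.6 units in Gsr-KO and 1137, 1541 and 1188 in Gsr-WT. Means were 226 ± 34.7 and 1289 ± 220 units (SD, n = 3 each). The log2 difference was -2.38 (SE 0.18, limma adjusted p = 7.3e-09), and it was -2.24 without Gsr-WT replicate 2. The second probe set gave 84.1 ± 20.2 and 791 ± 463 units, with Gsr-WT replicate 2 at 260 and the others at 1007 and 1107. Groups did not overlap on either probe set. The exact permutation test, two-sided, gave p = 0.1 for both, which is the smallest p that 3 against 3 arrays allow. The signal left in the knockout was of similar size at all ages: over all 32 arrays the first probe set ran from 138.3 to 256.6 units in 16 Gsr-KO arrays and from 498.4 to 1541 in 16 Gsr-WT arrays.

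Saraf rose in the knockout, in 3 lungs with nearly equal values. Its protein sits in the membrane of the endoplasmic reticulum and damps the calcium entry that follows store release. The 3 Gsr-KO lungs read 6556, 6497 and 6453 units, and the Gsr-WT lungs 3271, 1989 and 3248. Every knockout value lay above every wild-type value, and Gsr-WT replicate 2 was the lowest. The log2 difference was 1.23 (SE 0.16, limma adjusted p = 0.00011), and 0.99 (SE 0.14, adjusted p = 0.00126) without replicate 2. Over all ages and exposures the 16 Gsr-KO arrays (4764 to 6556 units) and the 16 Gsr-WT arrays (1725 to 3679) did not overlap. The log2 difference was 1.17 at E19, 0.82 in the adult lungs kept in air, and 1.12 and 1.34 at P5 in air and in hyperoxia. A list of 12 measured genes of store-operated calcium entry, drawn up after Saraf was seen, held no other gene at an unadjusted p under 0.05. Stim1, the calcium sensor of the store, had a log2 difference of 0.24 and Orai1, the channel subunit, 0.15, and the median of the list was 0.141 against 0.0491 over all genes tested. Without Gsr-WT replicate 2 the list median was -0.0908 against 0.0193 over all genes.

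Zdhhc2 was called lower, but its 4 probe sets did not move together. The probe set with the highest mean, 1452655_at, read 90.8, 46.9 and 83.2 units in Gsr-KO and 529.7, 801.7 and 558.1 in Gsr-WT. Its log2 difference was -2.72 (SE 0.28, limma adjusted p = 2.9e-06), and -2.54 without Gsr-WT replicate 2. All 3 knockout values were under the 100.4-unit floor, so the size depends on the offset, and with the knockout lungs set to that floor the log2 difference was -2.35.

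The other probe sets of Zdhhc2 gave 3 different patterns. Probe set 1453481_at was also lower, at 71.9, 56.9 and 64.1 units against 295.5, 287.8 and 243.7 (log2 difference -1.74). Probe set 1452656_at overlapped between genotypes, at 252.0, 239.5 and 252.7 against 310.7, 385.1 and 228.2 (-0.26). Probe set 1452654_at went the opposite way, at 215.9, 270.9 and 233.1 against 40.7, 20.1 and 41.0 units (log2 difference 2.16, limma adjusted p = 0.00328 over all probe sets). The same disagreement was present in every condition. Over all 32 arrays 1452654_at ran from 179.8 to 712.0 units in Gsr-KO and from 13.9 to 70.5 in Gsr-WT, while 1453481_at ran from 40.9 to 152.2 and from 164.3 to 351.9. Which stretch of the transcript each probe set reads is not given in the tables used here, so the direction called for Zdhhc2 is that of 1452655_at and 1453481_at and is opposed by 1452654_at. The 20 measured palmitoyltransferases, listed after Zdhhc2 was seen, held 1 further gene at an unadjusted p under 0.05, Zdhhc8, at a log2 difference of 0.83 with all arrays and 0.25 without Gsr-WT replicate 2.

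**Figure D1:**
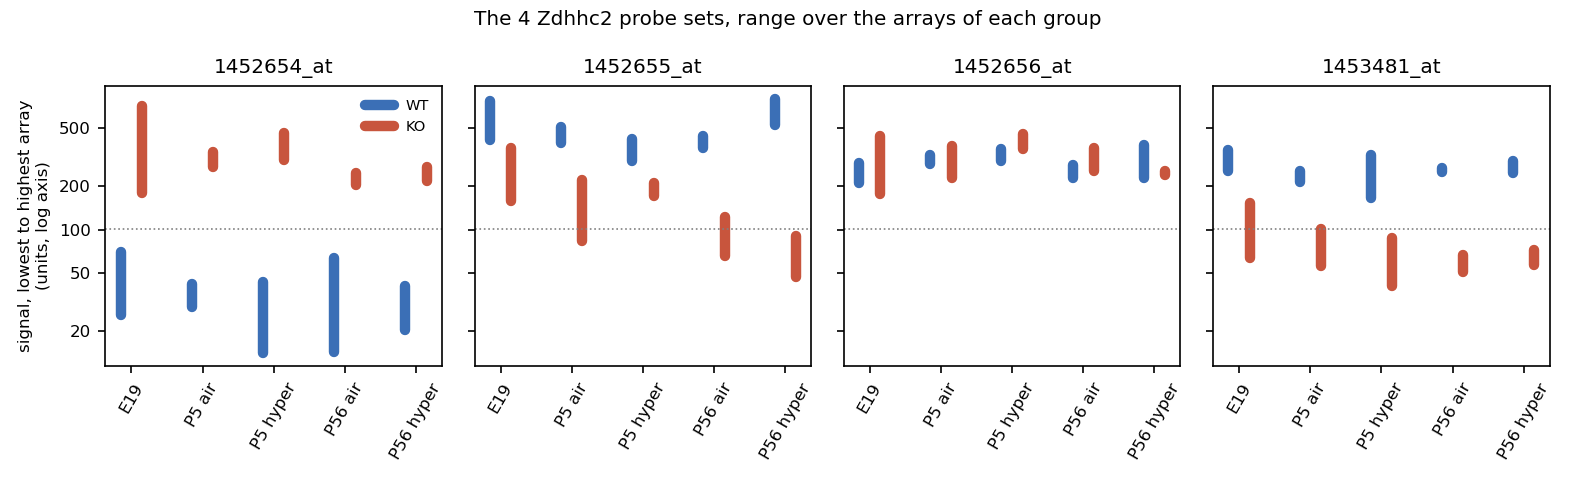
Signal of the 4 Zdhhc2 probe sets (units, log axis) at each age and exposure. Each bar runs from the lowest to the highest array of a group (WT blue, KO red, 3 or 4 arrays each), and the dotted line is the 100.4-unit floor. 1452654_at is higher in the knockout in every condition, 1452655_at and 1453481_at are lower, and 1452656_at overlaps except in P5 hyperoxia.

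Gsr, Saraf and Zdhhc2 all lie on chromosome 8 in the GRCm38.p6 annotation. Of the 44 genes named by the rule below, 10 lie there, a larger share than the 714 of all 13345 genes tested. The other 7 are Ces1g, Fendrr, Ucp1, Cox4i1, Nqo1, Atp4b and Mcemp1, and none of them passed the adjusted test. Over the whole chromosome 66 of 714 genes tested had an unadjusted p under 0.05, a share of 9.24% against the 8.72% over all genes. This share at the unadjusted threshold ran from 7.3% to 10.6% over the chromosomes. Why chromosome 8 holds a larger part of the named genes was not tested.

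Cyp26b1 rose in the knockout after hyperoxia. It encodes a cytochrome P450 that clears retinoic acid, the vitamin A product that guides alveolar growth. Signals were 1413, 660.8 and 708.4 units in Gsr-KO and 217.0, 78.0 and 117.7 in Gsr-WT, with no overlap. The log2 difference was 2.55 (SE 0.44, limma adjusted p = 0.0157). Without Gsr-WT replicate 2 the difference was 2.26 and no longer passed (adjusted p = 0.205). It also missed without Gsr-KO replicate 1 (2.21, adjusted p = 0.0822) and without Gsr-WT replicate 3 (adjusted p = 0.112).

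In air the Cyp26b1 signals of the genotypes overlapped. They were 214.5, 556.6 and 328.8 units in Gsr-KO and 455.8, 222.8 and 358.9 in Gsr-WT, a log2 difference of 0.04. The genotype-by-oxygen term was 2.51 (SE 0.63, unadjusted p = 0.00047), and it did not pass over all genes (limma adjusted p = 0.999). The log2 difference was 0.83 at E19, and 0.84 and -0.14 at P5 in air and in hyperoxia. Among 15 measured genes of retinoic acid synthesis, breakdown and response, a list drawn up after Cyp26b1 was seen, no other member had an unadjusted p under 0.05. Aldh1a2, which makes retinoic acid, was at -0.35, Rdh10, which makes its precursor, at -0.08, Lrat, which stores retinol as esters, at 0.57, and the receptor Rarb at 0.05. The list median was 0.0496, next to 0.0491 over all genes.

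Gm5617, a predicted gene outside the naming rule, is named because the called genes are so few. It read 399.2, 499.9 and 540.0 units in Gsr-KO and 164.0, 129.9 and 207.3 in Gsr-WT, without overlap. Its log2 difference was 1.40 (SE 0.26, limma adjusted p = 0.0357). Without Gsr-WT replicate 2 it was 1.25 and did not pass (adjusted p = 0.398), and it missed the threshold without each of 4 other arrays in turn (adjusted p from 0.0552 to 0.356), passing only without Gsr-KO replicate 1. In air the difference was 0.67.

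Glycam1 was called when Gsr-WT replicate 2 was left out and not with all arrays. The Gsr-KO lungs read 336.4, 458.8 and 206.6 units, and the Gsr-WT lungs 2.65, 512.3 and 36.2. Replicate 2 was thus the highest of all 6 arrays, and the groups overlapped. With all arrays the log2 difference was 1.80 (SE 0.65, limma adjusted p = 0.45), and without replicate 2 it was 3.02 (SE 0.51, adjusted p = 0.0103). Both Gsr-WT arrays left were under the 100.4-unit floor, so this size depends on the offset, and with Gsr-WT set to that floor the log2 difference was 1.44. In air every array but 1 was under 40 units, and the exception was Gsr-WT replicate 3 at 133.4. The genotype-by-oxygen term was 2.27 (unadjusted p = 0.02).

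**Figure D2:**
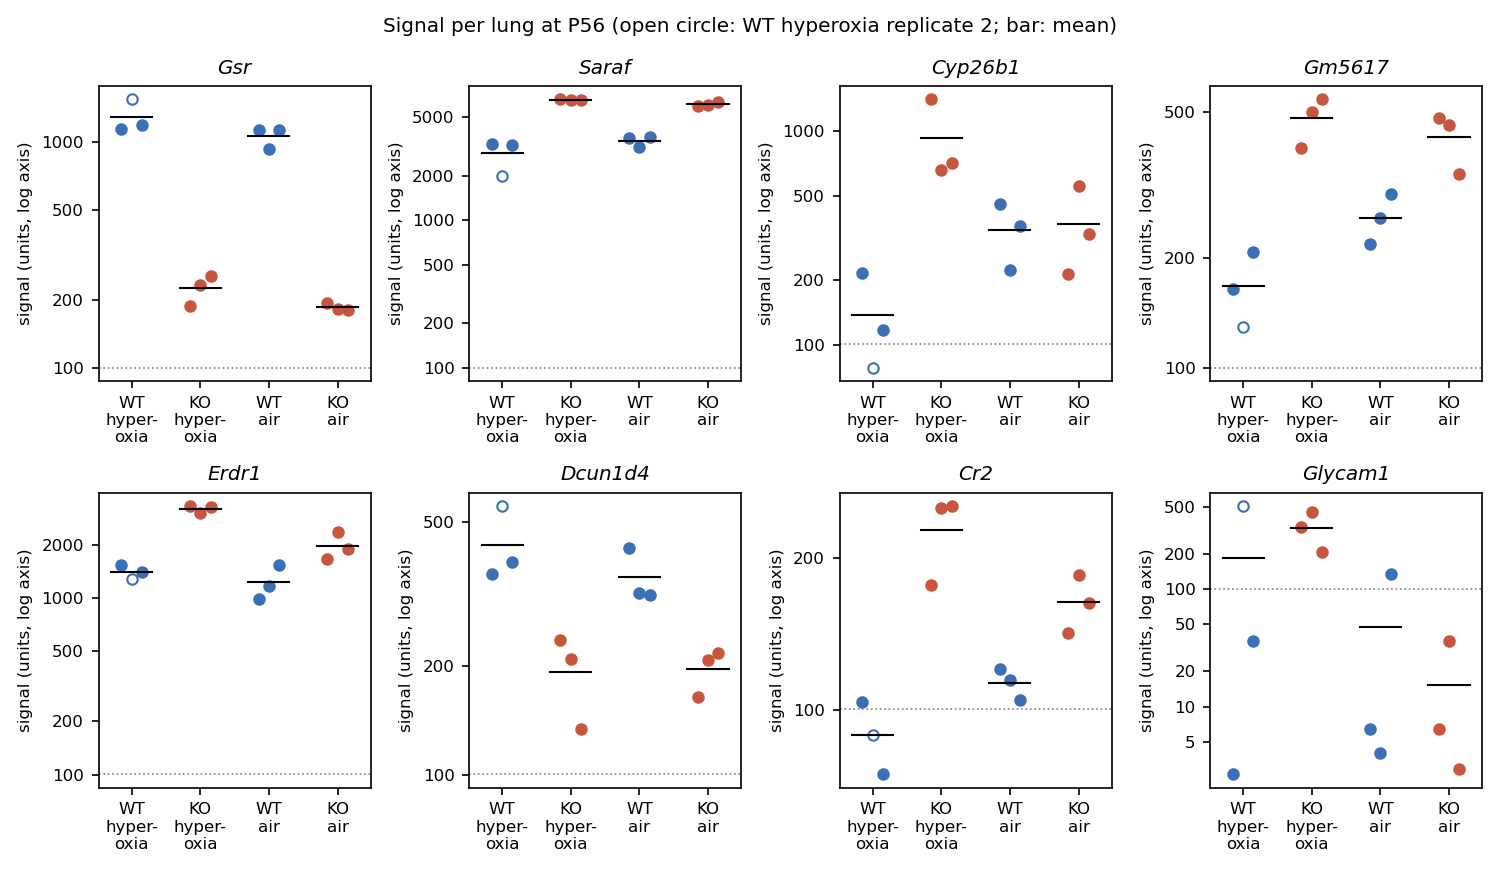
Signal (units, log axis) of 8 genes in the 12 lungs at P56, with WT in blue and KO in red. Each point is 1 lung, the bar is the group mean, the open circle is WT hyperoxia replicate 2 and the dotted line is the 100.4-unit floor. Saraf separates the genotypes in both exposures, Cyp26b1 separates them after hyperoxia and overlaps in air, and Glycam1 in WT hyperoxia replicate 2 lies with the KO lungs.

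Of the genes named by the rule, Dcun1d4, Erdr1 and Cr2 came nearest to the threshold without passing it. Dcun1d4, a co-factor of cullin neddylation, read 236.4, 208.9 and 133.7 units in Gsr-KO and 358.7, 553.8 and 386.4 in Gsr-WT (log2 difference -1.07, SE 0.21, limma adjusted p = 0.0661). Erdr1, erythroid differentiation regulator 1, read 3352, 3066 and 3297 against 1540, 1286 and 1404 (1.19, SE 0.25, adjusted p = 0.113). Cr2, the complement receptor of B cells and follicular dendritic cells, read 176.8, 252.6 and 254.5 against 103.7, 88.9 and 74.4 (1.13, SE 0.25, adjusted p = 0.159). The rule that named these 3 genes required groups that do not overlap and an unadjusted p under 0.05 in both fits. Their lack of overlap and kept sign therefore add nothing. Without Gsr-WT replicate 2 the differences were -0.89, 1.12 and 1.14. The 3 genes did not pass in that fit either, with a limma adjusted p of 0.429 each. Dcun1d4 passed without Gsr-KO replicate 1 (-1.22, adjusted p = 0.0402).

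Groups of 3 that do not overlap were common in these data: 1251 genes (9.37%) were higher in all knockout lungs than in any wild-type lung, and 997 (7.47%) lower. The named genes are, besides those above, the 10 highest and 10 lowest differences among non-overlapping genes with an unadjusted p under 0.05 in both fits, and up to 3 genes of each list with an unadjusted p under 0.05 in both fits, whether or not the groups overlap. Among the highest were Ces1g, a carboxylesterase (519.1, 569.4 and 437.4 against 248.0, 203.7 and 216.3 units, log2 difference 1.10), and Fendrr, a long non-coding RNA transcribed beside Foxf1 (1716, 2351 and 2369 against 1061, 874.1 and 1056, 1.08). Ifnz, an interferon, read 154.3, 165.8 and 168.0 units against 92.6, 46.2 and 77.2, all under the floor in Gsr-WT. Its log2 difference was 0.97, and 0.58 with Gsr-WT set to the floor. Msc, the transcription factor musculin, and Atp4b, a proton pump subunit, were also under the floor in all 3 wild-type lungs and in 1 knockout lung each, and no size is given for them. Dlgap5, a mitotic spindle gene, was under the floor in all 6 lungs, at 29.7 to 43.7 units in Gsr-KO and 3.88 to 7.19 in Gsr-WT.

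Among the lowest was Tagln2, an actin-binding protein. It read 4217, 3610 and 4449 units in Gsr-KO and 8030, 7984 and 7734 in Gsr-WT, a log2 difference of -0.95 (SE 0.37) that was also -0.95 without Gsr-WT replicate 2. In air its values were 9773, 6096 and 5670 against 5821, 6741 and 4699, so they overlapped, and the genotype-by-oxygen term was -1.24 (unadjusted p = 0.026). Itm2a, an integral membrane protein, read 1116, 1346 and 1249 against 3019, 4019 and 1698 (-1.14), and Nnat, the imprinted gene neuronatin, read 85.9, 162.7 and 127.4 against 367.0, 179.8 and 399.8 (-1.14). Tcf23, a helix-loop-helix factor, lay under the 100.4-unit floor in all 3 knockout lungs, with a log2 difference of -1.18, and -0.18 with Gsr-KO set to the floor. Ccdc14, a coiled-coil protein, and Grp, gastrin-releasing peptide, had a mean under the floor in both genotypes, and no size is given for them. No gene of these last 2 paragraphs passed the adjusted test.

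Gene lists were read against the same counts over all genes, where 4.85% were higher and 3.87% lower at an unadjusted p under 0.05 and the median log2 difference was 0.0491. That balance depends on scaling. The authors' values were used as scaled, which gave 55.6% of the genes at that threshold higher in the knockout. Without Gsr-WT replicate 2 the share was 67.1%. Centring each array on its median gave 160 higher and 1056 lower (13.2% higher) and moved the median of all genes to -0.125. Several list medians below are therefore also given relative to the median of all genes, which this centring leaves as it is. All-gene counts at the unadjusted threshold also moved with 1 array left out. They were 821 higher and 614 lower without Gsr-KO replicate 1, 346 and 302 without Gsr-KO replicate 2. Without Gsr-KO replicate 3 they were 335 and 274. Without Gsr-WT replicates 1, 2 and 3 they were 752 and 573, 555 and 272, and 836 and 612. List counts with an array left out are to be read beside these.

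The enzymes that share glutathione with Gsr held no gene past the adjusted test. Of 25 measured genes of the glutathione system other than Gsr, 3 were higher at an unadjusted p under 0.05 and none lower, and 2 were higher without Gsr-WT replicate 2. Leaving out 1 other array at a time gave none without Gsr-KO replicate 2, 1 without Gsr-KO replicate 3 or Gsr-WT replicate 3, and 2 or 3 otherwise. Gss, glutathione synthetase, read 1035, 1028 and 905.9 units in Gsr-KO and 762.2, 291.0 and 709.7 in Gsr-WT (0.83, and 0.41 without replicate 2). Ggt5, a gamma-glutamyltransferase, read 391.0, 607.2 and 550.0 against 292.1, 439.5 and 335.8 (0.50, and 0.65 without replicate 2). Gpx4, which reduces lipid peroxides, varied widely in the knockout, at 6249, 10680 and 16690 against 9763, 7046 and 5110 (0.55). The rate-limiting pair for glutathione synthesis, Gclc and Gclm, stood at 0.25 and 0.18, and the cystine transporter Slc7a11 at 0.17. The list median was 0.219, or 0.170 above all genes, and 0.0628 above them without replicate 2. In air 3 of the 25 were also higher at the unadjusted threshold and none lower, against 6.23% and 5.61% over all genes, and the list median was 0.164.

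Glutathione S-transferases, thioredoxins and NADPH-forming enzymes gave similar counts. Of 17 transferases, Gstt2 alone met the unadjusted threshold, at 0.77 with all arrays and 0.43 without Gsr-WT replicate 2, where it did not. None of 18 genes of the thioredoxin system and peroxiredoxins did. There, Txnrd1, the cytosolic thioredoxin reductase, was at 0.30, Prdx2 at 0.32 and Txn1 at -0.15. Mitochondrial Txnrd2 was at 1.15 with all arrays, with Gsr-WT replicate 2 at 19.2 units and the other 5 lungs at 206.7 to 359.0, and at 0.31 without it. Of 17 NADPH-forming enzymes 1, Tkt of the pentose phosphate pathway, met the threshold (0.32, and 0.26 without replicate 2). Of 12 superoxide and peroxide enzymes Cybb, the catalytic subunit of the phagocyte NADPH oxidase, was lower in all 3 knockout lungs, at 1496, 1094 and 1258 units against 2166, 1675 and 2904 (-0.77). The superoxide dismutases Sod1 and Sod2 and catalase (Cat) stood at -0.09, -0.19 and -0.09. In air, Sod1 and Cat stood at 0.43 and 0.55, and their genotype-by-oxygen terms had an unadjusted p of 0.014 and 0.016.

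NRF2 targets had 6 of 32 measured members higher at an unadjusted p under 0.05 and none lower, 2 without Gsr-WT replicate 2, and none past the adjusted test. Nqo1, the quinone reductase that is a standard readout of NRF2, read 302.9, 337.9 and 394.4 units in Gsr-KO and 213.0, 202.7 and 207.0 in Gsr-WT. Its log2 difference was 0.66 (SE 0.23, limma adjusted p = 0.436), and 0.64 without replicate 2, and the groups did not overlap. The carboxylesterase Ces1g also met the threshold in both fits. Blvrb and Cbr1, a biliverdin and a carbonyl reductase, read 666.4, 725.6 and 641.7 against 448.6, 184.5 and 470.7, and 1926, 1921 and 1862 against 1437, 844.2 and 1649. Without replicate 2, the lowest in both, their differences went from 0.94 to 0.53 and from 0.58 to 0.30. Hmox1, heme oxygenase, was at -0.17 and Srxn1, sulfiredoxin, at 0.15. The list median was 0.161, or 0.112 above all genes. Under median centring it was -0.0134, again 0.112 above all genes. In air 6 of the 32 were also higher at the unadjusted threshold and none lower, against 6.23% and 5.61% over all genes. The air list median was 0.181, and list levels did not overlap (0.592 to 0.646 in Gsr-KO, 0.363 to 0.432 in Gsr-WT). Nqo1 and Ces1g stood at 0.71 and 0.99 in air.

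Oxidative phosphorylation genes met the unadjusted threshold in 1 direction. Of 46 measured subunits of the respiratory chain and ATP synthase, 8 were higher at an unadjusted p under 0.05 and none lower, and 10 were higher without Gsr-WT replicate 2. The count was 3 without Gsr-KO replicate 2 or Gsr-KO replicate 3, 4 without Gsr-WT replicate 3, 5 without Gsr-WT replicate 1 and 11 without Gsr-KO replicate 1. Over all genes the number higher was, in the same order, 346, 335, 836, 752 and 821, against 647 with all arrays. None of the 46 passed the adjusted test. Ndufa7, a subunit of complex I, read 7012, 8821 and 9098 units in Gsr-KO and 5951, 5480 and 6190 in Gsr-WT (log2 difference 0.49, SE 0.15, limma adjusted p = 0.409), and its 4 other probe sets had the same sign. Ndufb3, also of complex I, read 5004, 5526 and 5264 against 3756, 4243 and 3792 (0.42). Cox4i1, of cytochrome oxidase, read 11990, 15190 and 15740 against 10920, 10130 and 10980 (0.41).

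Of the 46 oxidative phosphorylation genes 37 had a positive difference and 9 a negative one. The median was 0.206, and it was 0.157 above all genes, or 0.265 above them without replicate 2. The list level of an array, for which each gene's log2 values were first set to a mean of 0 over the series and then averaged over the list, was -0.0425, 0.0928 and 0.0874 in Gsr-KO and -0.192, -0.125 and -0.221 in Gsr-WT, without overlap. Most other lists overlapped in level, but lack of overlap was common. The knockout was higher without overlap in the glutathione system, NRF2 target, alveolar type 2, alveolar macrophage, B cell, T cell and DNA replication lists. It was likewise higher in the cholesterol, xenobiotic P450 and lymph node lists, and lower in the mitosis, heat shock and glucocorticoid lists. In air the oxidative phosphorylation level ran from -0.00545 to 0.192 in Gsr-KO and from -0.261 to -0.156 in Gsr-WT, with 15 members higher and none lower (over all genes in air 6.23% were higher and 5.61% lower). Median centring left 1 member above the threshold after hyperoxia, at a list median of 0.0319, which was still 0.157 above all genes. Gsr-WT replicate 2 lay with the other Gsr-WT lungs in list level. With the 18S controls as a covariate the list median was 0.275, against 0.0548 over all genes. In that fit 15 members were higher and none lower at an unadjusted p under 0.05. Over all 13345 genes 2329 were higher and 1466 lower there, so the count rose across the whole array. The part of the 18S control in this list was not tested.

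Heat shock and protein folding genes met the threshold in the lower direction. Of 23 measured, 6 were lower at an unadjusted p under 0.05 and none higher, and 3 were lower without Gsr-WT replicate 2 (4 or 6 without any 1 other array), with none past the adjusted test. Hspa1a, the inducible Hsp70, read 346.4, 257.1 and 340.8 units in Gsr-KO and 538.0, 1511 and 735.4 in Gsr-WT (log2 difference -1.36, SE 0.39, limma adjusted p = 0.387). Hsph1, an Hsp70 co-chaperone, read 1208, 1056 and 1339 against 1514, 2936 and 1684 (-0.70). Replicate 2 was the highest in both, and without it the differences were -0.95 and -0.41. Creld2 and Xbp1, of the endoplasmic reticulum stress response, stood at -0.54 and -0.31. The list median was -0.226, or -0.275 relative to all genes, and -0.149 relative to them without replicate 2. The genotype-by-oxygen term had an unadjusted p under 0.05 in 6 of the 23 (Hspa1a, Hspa1b, Hsph1, Hspa8, Hsp90b1 and Hsp90aa1), all negative. Over all genes 1.35% had a negative and 1.11% a positive term at that threshold.

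Immediate early genes, which answer within minutes to stimulation and to tissue handling, had 4 of 23 members lower and 1 higher at an unadjusted p under 0.05. The counts were 3 and 0 without Gsr-WT replicate 2, without Gsr-KO replicate 1 they were 2 and 1, without Gsr-KO replicate 2 both were 0, and without Gsr-WT replicate 3 they were 0 and 1. Fos read 2889, 3197 and 6237 units in Gsr-KO and 5473, 6072 and 7047 in Gsr-WT (-0.67), and Egr1 read 3435, 2395 and 3218 against 4612, 3260 and 8149 (-0.73). The groups overlapped for both genes. Nr4a3, a nuclear receptor, was at -1.20 and its relative Nr4a2 at 0.63. Of 18 clock genes Cry1, a repressor of the clock, was lower without overlap, at 434.4, 451.0 and 333.4 against 681.3, 652.5 and 611.9 units (-0.65 in both fits). Clock was at -0.44 and the list median at 0.0149. The time of day of collection was not tested.

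**Figure D3:**
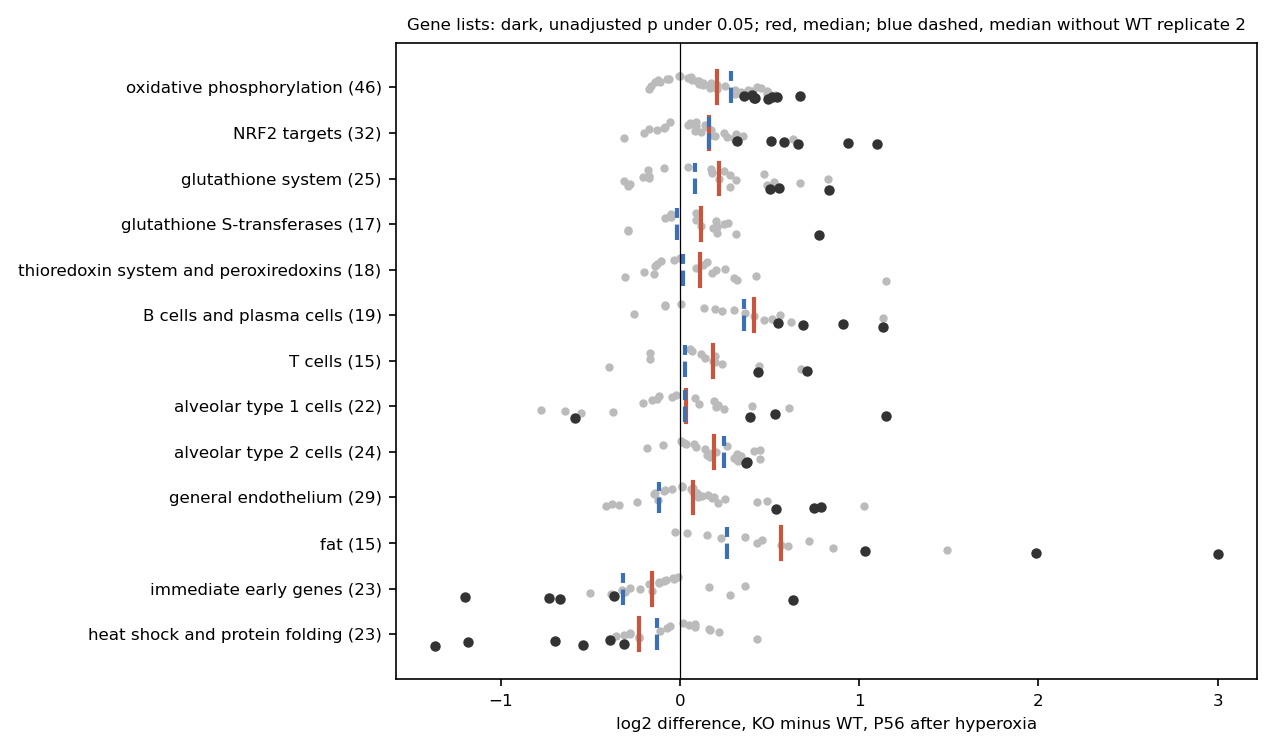
Log2 difference (KO minus WT, P56 after hyperoxia) of each measured gene of 13 lists, with the number measured in brackets. Each point is a gene, dark where the unadjusted p is under 0.05, the red bar is the list median with all arrays, and the blue dashed bar is the median without WT replicate 2. Oxidative phosphorylation, NRF2 targets and B cells have their dark points on the right and heat shock genes on the left, and the endothelium median crosses 0 without that array.

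**Figure D4:**
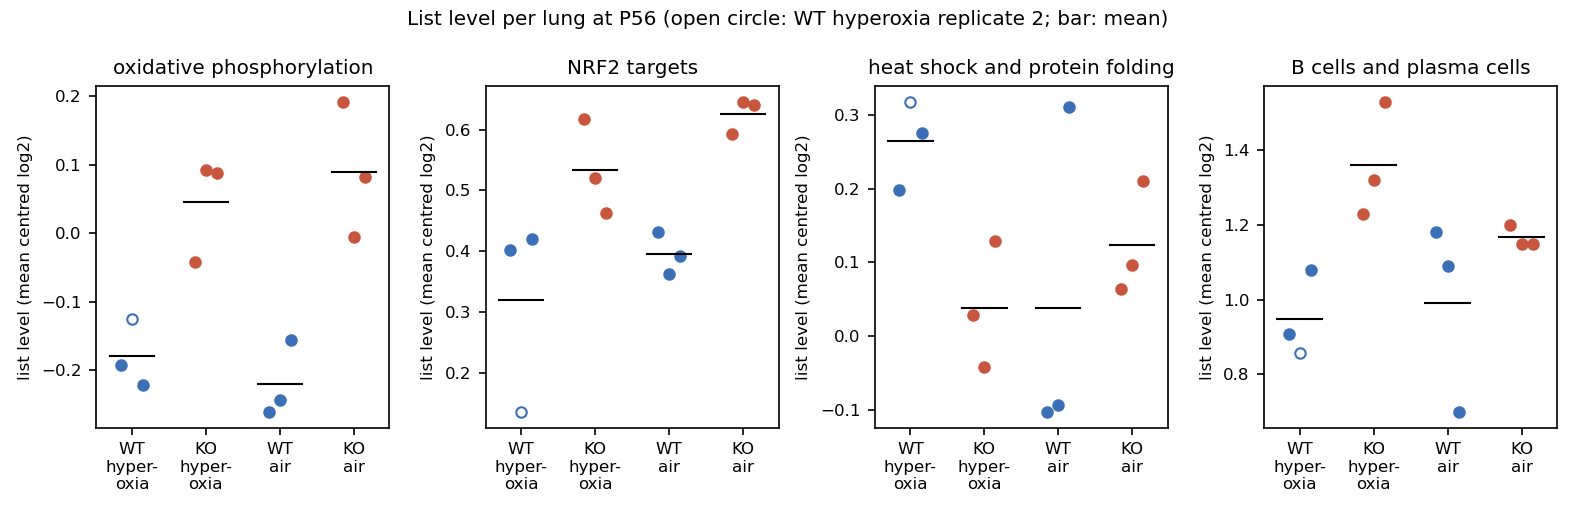
List level (average over the list of log2 values, each gene set to a mean of 0 over the 32 arrays) in the 12 lungs at P56 for 4 lists. Points are lungs, WT in blue and KO in red, the bar is the group mean and the open circle is WT hyperoxia replicate 2. After hyperoxia the genotypes do not overlap in any of these 4 lists, which do not stand for all lists. Most lists overlap, and several not shown do not, among them glutathione system, alveolar type 2, T cell, cholesterol, mitosis and DNA replication.

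Some B cell genes met the unadjusted threshold, and none passed the adjusted test. In bulk RNA, more cells of a type and more RNA per cell cannot be told apart, here and for every cell type below. Of 19 measured B and plasma cell genes 4 were higher at an unadjusted p under 0.05 and none lower, and 3 without Gsr-WT replicate 2. The count was 1 without Gsr-KO replicate 3, 2 without Gsr-WT replicate 1 and 3 to 5 without any other array. Besides Cr2 these were Jchain, the joining chain of secreted IgA and IgM, at 2827, 5176 and 5545 units against 1596, 3078 and 2438 (0.91), Cd79b, a subunit of the B cell receptor (0.69), and Blk, a B cell kinase (0.55). The list median was 0.412, or 0.363 above all genes, and the summed signal of the list was 26190 to 38410 units in Gsr-KO and 20400 to 26640 in Gsr-WT, which overlap. The list level did not overlap, as in the other lists named above, at 1.23, 1.32 and 1.53 against 0.907, 0.857 and 1.08. In air it was 1.15 to 1.20 against 0.699 to 1.18, which overlap, and no member met the threshold. The list median in air was 0.195, and no member had a genotype-by-oxygen term at an unadjusted p under 0.05.

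Glycam1 and Cr2 led a list of 7 measured genes of lymph node vessels and follicles that was drawn up after both were seen. All 7 had a positive difference with all arrays, and 3 had an unadjusted p under 0.05, or 1 without Gsr-WT replicate 1 and 2 without Gsr-KO replicate 3, Gsr-WT replicate 2 or Gsr-WT replicate 3. The third was Cxcl13, the chemokine that draws B cells into follicles, at 853.3, 933.7 and 1504 units against 699.5, 656.2 and 672.1 (0.63). Without Gsr-WT replicate 2, Ltb, lymphotoxin beta, and its receptor Ltbr turned from 0.59 and 0.47 to -0.23 and -0.18. Of 15 T cell genes, Cd28 and Ccr7 met the threshold with all arrays (0.44 and 0.71) and no member did without that replicate, Gsr-KO replicate 2 or Gsr-KO replicate 3. Without Gsr-KO replicate 1 there was 1.

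Alveolar epithelial markers showed small differences, none past the adjusted test. Of 24 type 2 cell genes, which make surfactant, 22 had a positive difference, and Sftpc and Sftpd met the unadjusted threshold. None did without Gsr-KO replicate 2 or Gsr-KO replicate 3, 1 did without Gsr-WT replicate 1 and 3 without Gsr-KO replicate 1. In air 8 of the 24 were higher at that threshold and none lower, against 6.23% and 5.61% over all genes. Sftpc read 19120, 22810 and 28640 units in Gsr-KO and 15130, 18970 and 19970 in Gsr-WT (0.37, and 0.37 in air). The list median was 0.190, but 0.0158 under median centring and 0.0575 under quantile normalization. Relative to all genes it was 0.141 above them with all arrays and also under median centring. It was 0.0582 above them under quantile normalization and 0.227 above them without Gsr-WT replicate 2. Among 22 type 1 cell genes Ager, the receptor for glycation end products, was higher (22140, 26560 and 33600 against 18170, 21920 and 21870, 0.39). Lmo7, a junction protein, was lower (5716, 5604 and 5881 against 8646, 10270 and 7165, -0.58), with a genotype-by-oxygen term of -0.71 (unadjusted p = 0.018), and its other probe set had the opposite sign. The median of the type 1 list was 0.0322. Of 21 measured club and secretory airway genes, Scgb1a1 and Scgb3a2 were higher at an unadjusted p under 0.05 (0.35 and 0.30) and 1 was lower. With 1 array left out, 0 to 3 were higher and 0 to 2 lower. A positive difference was seen in 13 of the 21, the lowest difference was -1.21 and the list median was 0.0854. List levels overlapped, at 1.43 to 1.64 in Gsr-KO and 0.808 to 1.96 in Gsr-WT.

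The endothelium counts rested on Gsr-WT replicate 2. With all arrays 3 of 29 genes were higher, Cldn5 of the tight junction, Esam and Egfl7. Egfl7 read 8317, 7990 and 8747 units in Gsr-KO and 6098, 2348 and 7822 in Gsr-WT, with replicate 2 far the lowest. Without it no member met the threshold, the 3 differences went from 0.54, 0.75 and 0.79 to 0.18, 0.29 and 0.27, and the list median went from 0.0733 to -0.119. Without Gsr-KO replicate 2, 1 member met the threshold.

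Fat genes varied widely between lungs of 1 genotype. Ucp1, which marks brown fat, read 1946, 722.6 and 440.3 units in Gsr-KO and 1461, 2.19 and 5.32 in Gsr-WT, so that Gsr-WT replicate 1 lay with the knockout lungs. The log2 difference was 3.00 (SE 0.94, limma adjusted p = 0.409), and without Gsr-WT replicate 1 it was 4.88 and passed (adjusted p = 0.00039). The Gsr-WT arrays left were both under the 100.4-unit floor, and with Gsr-WT set to that floor the log2 difference was 2.80. Thrsp, a lipogenic gene, followed the same lungs, at 5201, 2363 and 2183 against 3429, 361.7 and 303.9 (1.99). Of 15 measured fat genes 3 were higher at an unadjusted p under 0.05, and 1 without Gsr-WT replicate 2, Gsr-WT replicate 3 or Gsr-KO replicate 1. Without Gsr-WT replicate 1 there were 8. The summed signal of the list was 28820 to 37050 units in Gsr-KO and 15790 to 44110 in Gsr-WT. In air 8 of the 15 were higher at the unadjusted threshold and none lower, against 6.23% and 5.61% over all genes. The part of fat tissue in other differences was not tested.

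The remaining lists had at most 4 members at an unadjusted p under 0.05, none of them past the adjusted test except Cyp26b1 in the xenobiotic P450 list. DNA replication had 3 of 33 higher and 1 lower: Pold1, the catalytic subunit of DNA polymerase delta, was at 0.80, and Mcm6, a helicase subunit, at -0.55. Mitosis had 1 of 34, lower, and a median of -0.0368. Interferon response had 1 of 30, hypoxia targets none of 21, p53 targets 1 of 25, interstitial macrophages and monocytes none of 20 and heart and striated muscle none of 31. Of 29 fibroblast and matrix genes 2 were lower, Fn1, fibronectin, at -0.39 and Col6a2, a collagen VI chain, at -0.46, and neither was at that threshold without Gsr-WT replicate 2. Of 18 smooth muscle and pericyte genes Lmod1, leiomodin, was higher in both fits (0.60).

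The same genotype comparison in air shares no array with the one after hyperoxia, and its groups differed in Y-linked signal, as given above. There 10 genes passed (0.0749%), among them Gsr, Zdhhc2 and Saraf, at -2.35, -1.90 and 0.82. The other 7 (Papss2, Actb, Cyth3, Eif4g2, Pomk, Rps3a1 and Rps28) did not pass after hyperoxia, where their log2 differences ran from -0.62 for Papss2, a sulfate activation enzyme, to 0.46 for Actb, beta-actin. Of the 43 named genes other than Gsr, 38 had the same sign in air, 23 of them with an unadjusted p under 0.05 and 2 past the adjusted test. Of the 465 genes at the unadjusted threshold in both hyperoxia fits, 409 had the same sign in air. The share of all genes with the same sign is not given here. In air the log2 3'/5' control ratio was also higher in the knockout, at 1.05, 0.811 and 0.682 against 0.21, 0.348 and 0.358 in Gsr-WT. The 5' 18S control overlapped between the genotypes in air. The part of these controls in the shared differences was not tested. Over all 13345 genes the log2 differences of the comparisons had r = 0.385, and 0.5 without Gsr-WT replicate 2, as a description of genes that share probe sets and scaling.

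No gene passed the genotype-by-oxygen test at P56 (limma, adjusted p under 0.05), with or without Gsr-WT replicate 2. The called share was 0%. At an unadjusted p under 0.05 there were 328 genes (2.46%) with all arrays and 246 (1.84%) without it. Of the named genes 6 were among them with all arrays: Cyp26b1, Glycam1, Tcf23, Tagln2, Lmo7 and Hspa1a. For Tcf23 the knockout lungs read 30.9, 63.0 and 23.5 units after hyperoxia against 110.6, 133.1 and 108.4, and 67.2, 123.9 and 41.6 against 57.2, 83.5 and 46.0 in air. A p that misses the threshold does not show that the genotype difference was the same in air and after hyperoxia. The unequal Y-linked signal of the air groups enters each of these terms.

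**Figure D5:**
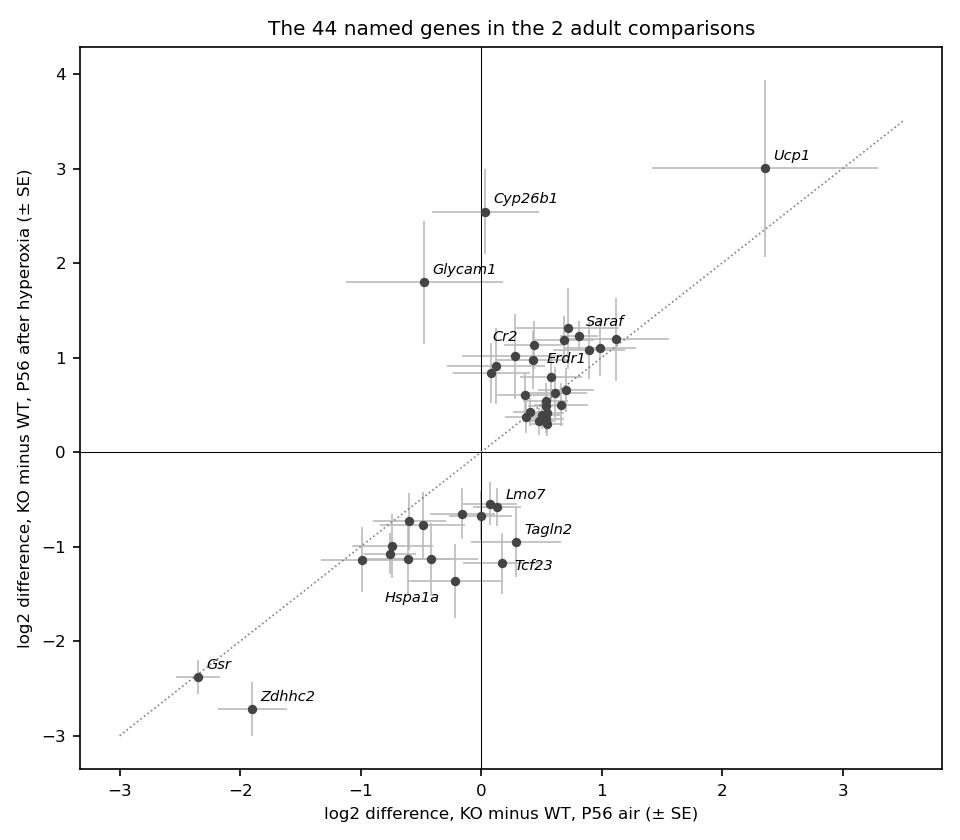
Log2 difference between KO and WT for the 44 named genes, in P56 air (horizontal) and at P56 after hyperoxia (vertical). Each point is a gene, the bars are ± 1 SE from the limma fit and the dotted line marks equal differences. Gsr and Saraf lie near the line, while Cyp26b1 (0.04 in air) and Glycam1 (-0.47 in air) lie far above it.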

How the data were processed

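Lung RNA was measured on Affymetrix Mouse 430_2 arrays, 1 mouse per array, in 32 arrays and 10 groups. The authors deposited a linear intensity for each of 45101 probe sets, with MAS5 named per the submitters' processing notes, and no array was rescaled here. Before log2, 26.3 units were added (the 25th percentile of the values), so differences at low signal are understated. Probe sets with exactly 1 symbol in the platform annotation were kept if 3 or more arrays exceeded 100.4 units, the median value, and the brightest of them on average stood for the gene. All 32 arrays entered 1 limma 3.58.1 fit (R 4.3.3) with a mean per group, 22 residual degrees of freedom and a trended variance prior, two-sided, with Benjamini-Hochberg adjustment over 13345 genes and a threshold of 0.05. The fit was tested on simulated data.

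Named genes are Gsr, genes called with all arrays, up to 10 called without Gsr-WT replicate 2, the 10 highest and 10 lowest non-overlapping genes at an unadjusted p under 0.05 in both fits, and up to 3 members of each list at that threshold in both fits, without predicted or clone-named genes. The 48 lists and the members were chosen with earlier results of these data known; 4 further lists and the 18S and 3'/5' covariates were added after seeing the data. Lists were described and not tested. Alternatives covered the filter, offset, scaling, samples in the fit, variance model, array weights, replicate block, Y-linked level and each array left out. Gene positions came from the RefSeq table of GRCm38.p6, which held 13302 of the genes. Replicate numbers were not treated as pairs. Probe sets without a symbol or with several, 9160 and 932, were not used in the gene fit. The number of arrays limits the precision.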

Additional observations from a re-analysis of the deposited data

Results flagged for a closer look

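Among 27031 probe sets that passed the filter, 2969 carry no gene symbol and were not part of the gene comparison. In the fit of all these probe sets 11 passed after hyperoxia, and 2 of them have no symbol. Probe set 1420465_s_at was higher in the knockout by 1.92 on the log2 scale (SE 0.286, limma adjusted p = 0.0016), at 210.3 to 544.0 units in Gsr-KO and 65.3 to 83.0 in Gsr-WT. Without Gsr-WT replicate 2 the difference was 1.84 (adjusted p = 0.0187), and in air the signals were 159.6 to 490.9 against 62.2 to 123.7 units. Probe set 1439170_at was higher by 1.89 (SE 0.35, adjusted p = 0.0289), at 98.9 to 152.4 units against 2.88 to 27.9, and by 2.09 without replicate 2 (adjusted p = 0.0315). In air it read 72.3 to 139.3 against 22.4 to 43.8 units. Both signals drew a closer look because they lie in data outside the gene comparison, and neither group of arrays overlapped the other. What they measure was not examined here.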

How the results depend on the processing

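The count of genes called after hyperoxia (5) became 9 in a fit of the 4 P56 groups, 2 with the compared groups alone, 4736 with array weights, 1263 with the 18S control and 349 with the 3'/5' ratio as covariates, and 9 with every probe set on its own. It ran from 3 to 9 with each array left out, the lowest without Gsr-WT replicate 3 and the highest without Gsr-KO replicate 1. The count in air (10) became 33 with the stricter filter, 5 with quantile normalization, 3 with median centring, 3 with the P56 groups alone, 1206 with the compared groups alone, 3 without the variance trend, 2688 with array weights, 50 with the Y-linked level, 88 with the 18S control, 477 with the 3'/5' ratio and 16 with every probe set, and it ran from 2 to 6 with each array left out. The genotype-by-oxygen count (0) became 327 with array weights and stayed 0 in every other alternative run. The cause of these shifts was not tested. Replicate numbers were not treated as pairs, since the labels name none. Same-numbered arrays deviated together with r of 0.229, 0.159 and -0.241 after hyperoxia, which cannot show whether a number marks a pair. With the replicate block 3 genes were called after hyperoxia, 3 in air and 0 for the genotype-by-oxygen term. Gsr and Zdhhc2 were called in 20 of 20 alternatives, Saraf in 19, Cyp26b1 in 15 and Gm5617 in 10 of 19, and Saraf was lost with the compared groups alone (adjusted p = 0.63). Over the named genes 800 values kept their direction and side of the threshold, 72 newly passed, 15 no longer passed and none turned. The second Gsr probe set gave a difference in mean signal of -707.1 units against -1062. Signal without detection calls limits what can be said of genes near 100.4 units.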
